A study of Mus musculus with 16 samples.

Results

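Fn3k, Fn3krp, Endod1, Sh3yl1 and Snx22 are 5 mouse genes chosen by their low array signal in fetal liver cells that carried an ERG transgene together with the GATA1s allele, set against wild type. They are 5 of the 16258 probe sets or gene symbols compared here, each read by 1 Affymetrix probe set with 1 gene symbol. RNA of fetal liver single-cell suspensions was measured on 16 arrays, 2 in each of 8 groups. The 4 genotypes, each taken at embryonic day 14.5 (E14.5) and at E12.5, were ERG/GATA1s (the ERG transgene and the GATA1s knock-in allele together), WT/GATA1s (the GATA1s allele alone), ERG Tg (the transgene alone) and WT (neither). Every group held 1 array labelled female and 1 labelled male, and group values below are given in the order female, male. The sources used here do not give the strain, the promoter and species of the transgene, the number of X-linked GATA1s copies in females or the number of embryos behind a sample. P-values therefore measure the spread between these samples, which may be technical.

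Fn3k encodes fructosamine 3-kinase, which phosphorylates the sugar of glycated proteins so that it falls off. Fn3krp encodes its close relative, which acts on other ketosamines and is the neighbouring gene on chromosome 11. Human red cells, which are exposed to glucose for their whole life, contain fructosamine 3-kinase activity. Endod1 encodes a protein with an endonuclease domain. Sh3yl1 encodes an adaptor with an SH3 domain and a lipid-binding SYLF domain, and Snx22 encodes a sorting nexin, a protein whose PX domain binds phosphoinositides of endosomal membranes. GATA1 directs red cell and megakaryocyte development, GATA1s is its short isoform without the start of the protein, and ERG is an ETS-family factor of blood stem cells and megakaryocytes.

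Upstream sequence was at hand for 3 of the 5 genes in RefSeq windows of the GRCm38.p6 build, and it is shown because GATA1 binds GATA motifs and ERG binds the ETS core. The letters searched were GATAA, with its reverse complement TTATC, and GGAA, with TTCC, on both strands. Capitals mark the GATA match. The windows are 250 bases up to the gene start, for Fn3krp at chr11:121421123-121421372 on the plus strand and for Snx22 at chr9:66069760-66070009 on the minus strand. For Sh3yl1 the 56 bases at chr12:30911613-30911668 are shown, plus strand, which lie between its start and that of the oppositely transcribed gene Acp1.
Fn3krp: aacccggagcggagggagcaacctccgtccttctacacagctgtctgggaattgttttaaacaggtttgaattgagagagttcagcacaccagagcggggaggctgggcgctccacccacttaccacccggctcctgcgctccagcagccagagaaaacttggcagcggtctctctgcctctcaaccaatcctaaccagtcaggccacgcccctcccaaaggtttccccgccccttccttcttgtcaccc
Snx22: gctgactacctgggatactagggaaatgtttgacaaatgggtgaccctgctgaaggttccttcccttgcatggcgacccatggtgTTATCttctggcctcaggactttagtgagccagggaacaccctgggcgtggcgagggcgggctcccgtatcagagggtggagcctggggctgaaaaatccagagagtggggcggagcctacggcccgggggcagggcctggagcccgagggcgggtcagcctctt
Sh3yl1: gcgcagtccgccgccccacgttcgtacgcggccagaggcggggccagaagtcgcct
The Snx22 window held 1 GATA match, and the Fn3krp window and the bases between Sh3yl1 and Acp1 held 0. The 250-base window of Sh3yl1, not shown in full, also held 0. A second, overlapping RefSeq window of Snx22 also held 1. Of 32851 RefSeq windows of 250 bases, 22.6% held a GATA match. The ETS core occurred 3 times in the Fn3krp window, 4 times in the Snx22 window shown, 3 times in the second Snx22 window and 1 time in the 250-base Sh3yl1 window. Of all windows 93.4% held it. A match of letters is a description of the window and not a bound site.

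The deposited log2 signal ran from 1.96 to 13.32, array medians from 4.79 to 4.94, and the median residual SD was 0.1615. Precision is limited by how few arrays there were. The liver markers Alb (10.95 to 12.22 over the 16 arrays) and Afp, and the red cell markers Klf1 (8.79 to 9.70), Epor and Slc4a1 (10.65 to 11.89), were bright on every array. Xist, transcribed from the inactive X chromosome, and the mean of Eif2s3y, Uty and Kdm5d from the Y chromosome opposed the labelled sex on 3 arrays, the E12.5 ERG/GATA1s male, the E14.5 ERG/GATA1s female and the E12.5 WT/GATA1s male. On 3 others, the E12.5 ERG Tg male, the E14.5 ERG Tg male and the E12.5 WT male, Xist and the Y-linked genes were both above their lowest level by over 1 log2 unit. Both E14.5 ERG/GATA1s arrays had Xist at the male level (4.22 and 4.19), so labelled sex does not separate embryos there. The E12.5 ERG/GATA1s male array also had the lowest SD over probe sets, 2.03, against 2.13 to 2.25 on the other arrays. The main differences, counts and correlations that use these arrays are given below with all arrays and also without the 3 of opposing or the 3 of mixed markers.

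Fn3k had the lowest signal of its 8 groups in E14.5 ERG/GATA1s livers, 4.73 and 4.49. The other E14.5 groups gave 7.61 and 7.03 in WT/GATA1s, 6.63 and 7.35 in ERG Tg, and 8.63 and 8.26 in WT. At E12.5 it was 6.37 and 5.55 in ERG/GATA1s, 6.15 and 5.88 in WT/GATA1s, 6.64 and 4.67 in ERG Tg, and 6.81 and 6.67 in WT. The E14.5 WT arrays stood above all others, with a gap of 0.65 to the next group. In the order of means E14.5 WT/GATA1s, E14.5 ERG Tg and E12.5 WT followed, each overlapping with the next. A gap of 0.52 lay between E12.5 WT and E12.5 WT/GATA1s, and from there down to E14.5 ERG/GATA1s neighbours in the order overlapped again. The E12.5 ERG Tg male array lay within the range of the E14.5 ERG/GATA1s arrays.

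Fn3krp, the neighbouring ketosamine kinase gene, followed the same order at its lower and upper ends. At E14.5 Fn3krp read 6.87 and 6.35 in ERG/GATA1s, 8.29 and 8.45 in WT/GATA1s, 8.81 and 9.01 in ERG Tg and, in WT, 9.40 and 9.32. Its E12.5 values were 7.93 and 6.70 in ERG/GATA1s, 7.32 and 7.50 in WT/GATA1s, 8.23 and 6.71 in ERG Tg, and 8.23 and 8.40 in WT. The 4 genotypes did not overlap at E14.5. At E12.5 the ERG/GATA1s, WT/GATA1s and ERG Tg arrays overlapped, with 1 low array in each genotype that carried the transgene.

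Endod1, the endonuclease-domain gene, was also lowest in E14.5 ERG/GATA1s and highest in E14.5 WT. The E14.5 signal of Endod1 was 6.45 and 6.20 in ERG/GATA1s, 8.20 and 7.95 in WT/GATA1s, 8.37 and 8.53 in ERG Tg and, in WT, 9.24 and 8.71. At the earlier stage Endod1 read 7.26 and 6.51 in ERG/GATA1s, 7.06 and 7.07 in WT/GATA1s, 7.73 and 6.77 in ERG Tg, and 7.66 and 7.73 in WT. The E14.5 groups were again separate, while E12.5 groups next to each other in the order overlapped.

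Sh3yl1, the SH3-domain adaptor gene, had its lowest 2 group means in the ERG/GATA1s livers of both stages. Sh3yl1 at E14.5 read 4.91 and 4.53 in ERG/GATA1s, 6.23 and 6.42 in WT/GATA1s, 6.59 and 6.58 in ERG Tg, and 7.91 and 6.60 in WT. The E12.5 arrays gave Sh3yl1 5.16 and 4.34 in ERG/GATA1s, 4.89 and 5.02 in WT/GATA1s, 6.02 and 4.68 in ERG Tg, and 5.84 and 5.54 in WT. The E14.5 WT male array exceeded the higher ERG Tg array by 0.01, and the WT mean stood apart through the female array. The ERG/GATA1s arrays of both stages overlapped with each other.

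Snx22, the sorting nexin gene, was separate from every other group in E14.5 ERG/GATA1s livers. The E14.5 arrays gave Snx22 4.70 and 4.70 in ERG/GATA1s, 6.90 and 6.37 in WT/GATA1s, 5.69 and 6.53 in ERG Tg, and 7.67 and 7.22 in WT. Snx22 at E12.5 read 5.96 and 5.89 in ERG/GATA1s, 5.97 and 5.55 in WT/GATA1s, 6.13 and 5.05 in ERG Tg, and 6.03 and 6.08 in WT. At E12.5 the group means of this gene ran from 5.59 to 6.06, a narrower range than at E14.5. All 5 genes exceeded the low-signal filter of 3.74 on all 16 arrays. The E14.5 ERG/GATA1s values of Fn3k and Snx22 nevertheless lay below the lowest array median, 4.79. So did Sh3yl1 on the ERG/GATA1s males (4.53 at E14.5 and 4.34 at E12.5), and Fn3k (4.67) and Sh3yl1 (4.68) on the E12.5 ERG Tg male. Differences that use these values end in dim signal, which limits how well their size is known.

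**Figure D1:**
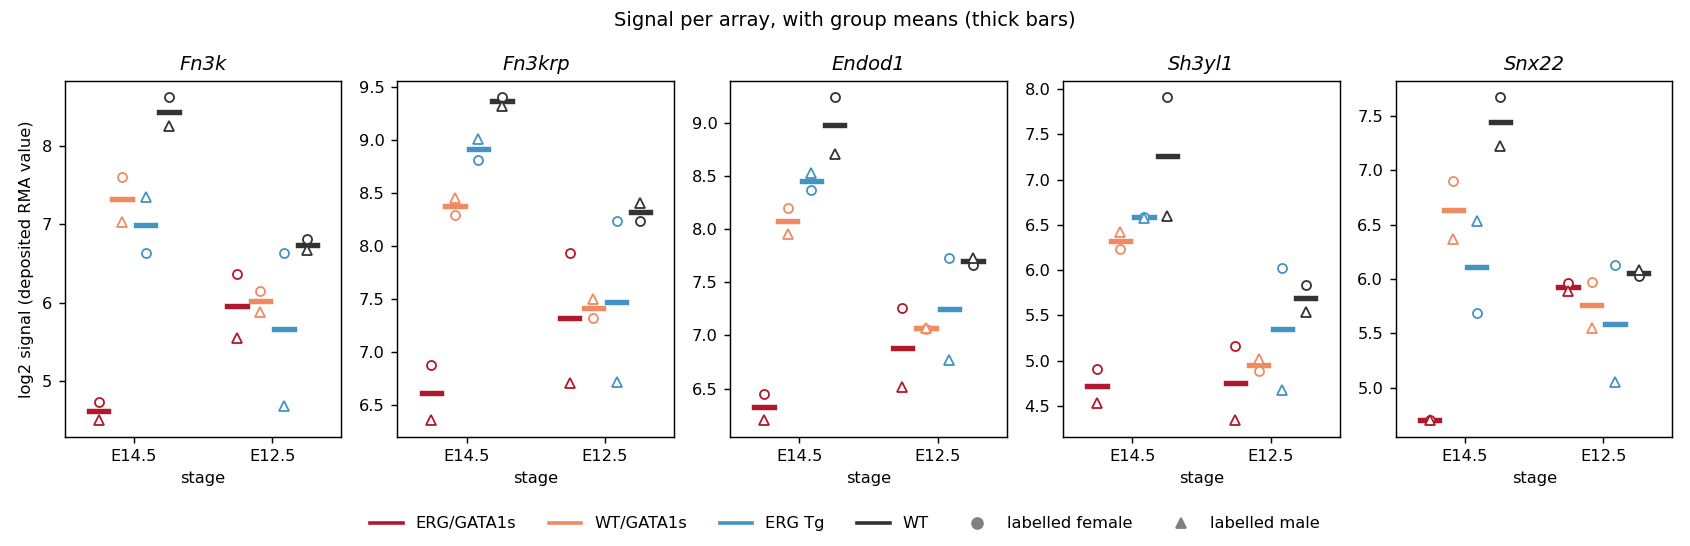
Log2 signal of the 5 genes (y axis, a separate scale for each panel) by stage (x axis), with circles for arrays labelled female, triangles for arrays labelled male, colours for genotypes and thick bars for means of 2 arrays. The E14.5 ERG/GATA1s arrays lie below all other E14.5 arrays in each panel, for Fn3k at 4.73 and 4.49 against 8.63 and 8.26 in WT.

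ERG/GATA1s against WT chose the genes, so its values are a description with no test. Averaged over both stages, the log2 difference was -2.31 ± 0.28 (SE, 4 arrays against 4) for Fn3k, -1.87 ± 0.26 for Fn3krp, -1.73 ± 0.16 for Endod1, -1.74 ± 0.23 for Sh3yl1 and -1.44 ± 0.21 for Snx22. Counted from the most negative of 16258 differences, these held ranks 1, 2, 6, 5 and 13. Snx22 was bordered by Runx1t1, a corepressor gene, at -1.45 and by the glucose transporter gene Slc2a4, outside the 5, at -1.41. Each gene was lower in 4 of 4 pairs of arrays matched for stage and labelled sex, a count favoured by the choice of the genes. By markers the E14.5 pair labelled female was not matched, with Xist at 4.22 in ERG/GATA1s and 11.52 in WT. Most of the difference lay at E14.5, where it was -3.83 for Fn3k, -2.75 for Fn3krp, -2.65 for Endod1, -2.53 for Sh3yl1 and -2.74 for Snx22. At E12.5 it was -0.78, -1.0, -0.81, -0.94 and -0.13 in the same gene order, and for Fn3krp it was -0.49 without the E12.5 ERG/GATA1s male array and -1.51 without the female one. The Snx22 difference at E12.5 was -0.28 without the WT female array and 0.02 without the WT male one, so its sign rested on that group. Without the 3 arrays of opposing markers the E12.5 values were -0.60, -0.49, -0.59, -0.81 and -0.21, and without the 3 of mixed markers -0.62, -0.77, -0.60, -0.87 and 0.04. At E14.5 they were -3.72, -2.90, -2.62, -2.45 and -2.63 without the opposing arrays, and omission of the mixed ones left them as they were. Over both stages the 5 differences ran from -2.16 to -1.42 without the opposing arrays and from -2.23 to -1.35 without the mixed ones. Restricted to arrays on the same side by sex markers at E14.5, with the WT male array as the base, Fn3k was -3.53 and -3.77 in the 2 ERG/GATA1s arrays and Sh3yl1 -1.69 and -2.07.

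Each single allele also went with a lower group mean than WT at E14.5, by less than the pair of alleles. The WT and ERG/GATA1s arrays chose the genes, so both features are favoured by that choice and carry no test. The log2 difference of WT/GATA1s minus WT was -1.12 for Fn3k, -0.99 for Fn3krp, -0.90 for Endod1, -0.93 for Sh3yl1 and -0.81 for Snx22. That of ERG Tg minus WT was -1.46, -0.45, -0.53, -0.67 and -1.33 in the same gene order. With both alleles Fn3k differed by -3.83, against -2.58 for the sum of the single-allele differences, and Fn3krp by -2.75 against -1.44. Snx22 lay nearest to the sum among the 5 genes, at -2.74 against -2.15. Without the 3 arrays of mixed markers, which include the E14.5 ERG Tg male, ERG Tg minus WT was -2.04, -0.70, -0.78, -0.88 and -1.90 in the gene order above. The difference with both alleles minus the sum was then -0.67 for Fn3k, -1.06 for Fn3krp and -0.03 for Snx22, so that Snx22 lay close to the sum. Without the opposing arrays these were -1.14, -1.46 and -0.48, and the single-allele differences were unaltered. When any 1 array was left out, all 10 single-allele differences at E14.5 remained below 0. The nearest to 0 was ERG Tg minus WT for Fn3krp, at -0.15 without the E14.5 ERG Tg female array. Those of Sh3yl1 came nearest to 0 without the WT female array (-0.46 for WT/GATA1s and -0.20 for ERG Tg).

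At E12.5 the comparison with the sum depended on single arrays, with the lowest values without the E12.5 ERG Tg male array. With all arrays the difference with both alleles minus the sum was 1.03 for Fn3k, 0.75 for Fn3krp, 0.265 for Endod1, 0.135 for Sh3yl1 and 0.63 for Snx22. Without that array it was 0.17, 0.07, -0.105, -0.36 and 0.13, so the sign turned for Endod1 and Sh3yl1. It was 0.115, -0.095, -0.25, -0.385 and 0.065 without the 3 mixed arrays, and 0.455 to 1.46 over the 5 genes without the opposing ones. For Sh3yl1 the sign turned on omission of any of 3 single arrays, the E12.5 ERG Tg male included. The differences share the WT arrays, and they carry no test.

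WT/GATA1s against ERG Tg, the comparison that the choice of genes did not use, separated none of the 5. The test was limma's moderated test with labelled sex as a covariate, and adjusted p-values are Benjamini-Hochberg over all 16258 units. Averaged over both stages, the log2 difference was 0.35 ± 0.28 (SE) for Fn3k (95% interval -0.26 to 0.95, adjusted p = 0.543) and -0.30 ± 0.26 for Fn3krp (-0.86 to 0.26, adjusted p = 0.573). It was -0.28 ± 0.16 for Endod1 (-0.63 to 0.07, adjusted p = 0.371), -0.33 ± 0.23 for Sh3yl1 (-0.83 to 0.17, adjusted p = 0.475) and 0.35 ± 0.21 for Snx22 (-0.11 to 0.81, adjusted p = 0.401). Thus 0 of 5 passed, and 0 had an unadjusted p under 0.05 (range 0.111 to 0.267), while 6.85% of all units passed. The median of the 5 was -0.28, against 0.01 over all units. The intervals leave room for differences of up to 0.95 on the log2 scale. Without the E12.5 ERG Tg female array the Fn3krp difference was 0.04 and without the male one the Fn3k difference was -0.09, so the sign of both rested on that group. Without the opposing arrays the differences were 0.30, -0.40, -0.36, -0.50 and 0.39 in the gene order above (adjusted p 0.311 to 0.677), and without the mixed ones 0.26, -0.48, -0.30, -0.45 and 0.43 (adjusted p 0.313 to 0.65).

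At single stages 0 of 5 passed at E12.5 (adjusted p 0.647 to 0.965, with 2.63% of units called) and 0 of 5 at E14.5 (adjusted p 0.392 to 0.791, with 6.60% called). Snx22 at E14.5 differed by 0.53 ± 0.30 with all arrays. Without the 3 arrays of mixed sex markers it differed by 1.09 (adjusted p = 0.0309), with 1 ERG Tg array left at each stage. The Snx22 difference was -0.07 without the E14.5 ERG Tg female array (adjusted p = 0.993) and 1.12 without the male one (adjusted p = 0.0518), so its sign rested on that pair. When 1 array was left out the sign also turned for Fn3k and Sh3yl1 at E14.5 and for all 5 genes at E12.5, and 0 of 5 passed. The difference between the stages passed for 0 of 5 genes (adjusted p 0.834 to 0.996, with 3.12% called). In these 3 comparisons 0 of 5 had an unadjusted p under 0.05 in limma's test.

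Averaged over the single-allele genotypes, the 5 genes rose with gestation. Over WT/GATA1s and ERG Tg together, E14.5 exceeded E12.5 by 1.32 ± 0.28 (log2, SE, 4 arrays against 4) for Fn3k, a 2.50-fold difference (adjusted p = 0.00258). Fn3krp rose by 1.20 ± 0.26 (2.30-fold, adjusted p = 0.00281), Endod1 by 1.10 ± 0.16 (2.15-fold, adjusted p = 0.000184) and Sh3yl1 by 1.30 ± 0.23 (2.47-fold, adjusted p = 0.000744). Snx22 rose by 0.70 ± 0.21 (1.62-fold, adjusted p = 0.0216). All 5 passed in limma's test, against 22.1% of units called higher and 37.8% called in either direction. The median of the 5 was 1.20, against -0.03 over all units. Both E14.5 arrays exceeded both E12.5 arrays for 5 of 5 genes in WT/GATA1s, where 33.5% of units did so, and for 3 of 5 in ERG Tg, where 34.7% did. Fn3k and Snx22 overlapped in ERG Tg, where the pair labelled female differed by -0.01 and -0.44 and the pair labelled male by 2.68 and 1.48.

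The stage result depended in part on single arrays. Without the 3 arrays of mixed markers, 3 of 5 genes passed, and Fn3krp (0.77, adjusted p = 0.0544) and Snx22 (0.22, adjusted p = 0.359) did not. Fn3k was then 0.65, the mean of 1.305 in WT/GATA1s and -0.01 in ERG Tg, where 1 array was left at each stage. In ERG Tg Snx22 was then -0.44, while Fn3krp, Endod1 and Sh3yl1 were 0.58, 0.64 and 0.57. Snx22 also lost its call without the E12.5 ERG Tg male array (0.45, adjusted p = 0.124), the E12.5 WT/GATA1s male (0.64, adjusted p = 0.0695), the E14.5 ERG Tg male (0.40, adjusted p = 0.12) or the E14.5 WT/GATA1s female (0.61, adjusted p = 0.0743). It lost it too without the 3 arrays of opposing markers (0.65, adjusted p = 0.104). Fn3k, Fn3krp, Endod1 and Sh3yl1 passed when any single array was left out.

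**Figure D2:**
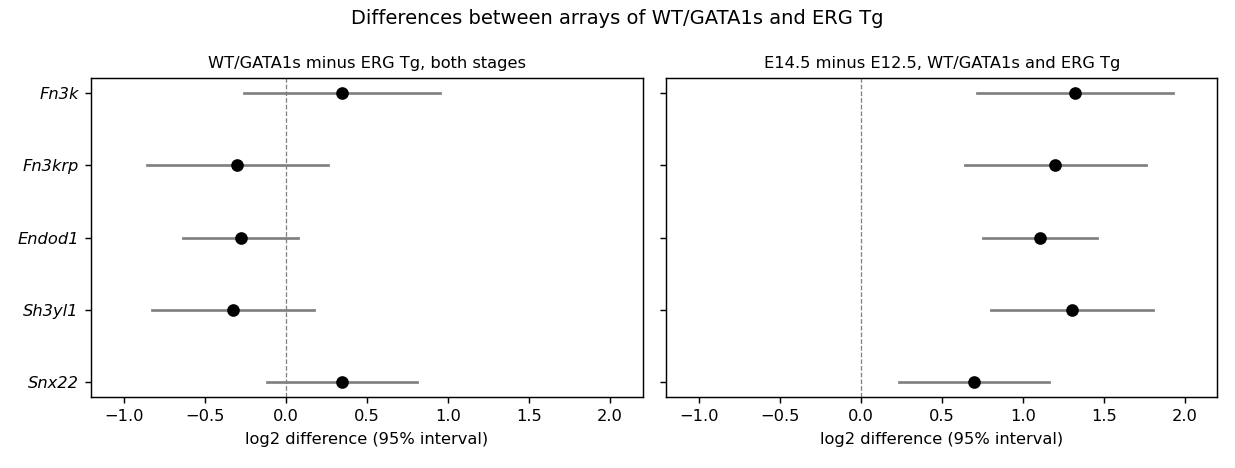
Log2 differences (x axis) of the 5 genes (y axis) with 95% intervals, for WT/GATA1s minus ERG Tg over both stages (left) and E14.5 minus E12.5 over these genotypes (right), with a dashed line at 0. All 5 intervals on the left include 0, as for Fn3k from -0.26 to 0.95, and all 5 on the right lie above it.

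In ERG/GATA1s the E14.5 mean was not higher than the E12.5 mean for any of the 5 genes. The log2 difference of E14.5 minus E12.5 was -1.35 for Fn3k, -0.70 for Fn3krp, -0.56 for Endod1, -0.03 for Sh3yl1 and -1.22 for Snx22. In WT it was 1.70, 1.04, 1.28, 1.56 and 1.39 in the same gene order. Without the opposing arrays it was -1.41, -1.37, -0.76, -0.08 and -1.03 in ERG/GATA1s, and without the mixed arrays it was 1.86, 1.28, 1.49, 1.63 and 1.56 in WT. For Sh3yl1 in ERG/GATA1s the sign depended on single arrays, with 0.16 when the E12.5 female array was left out and 0.03 when the E14.5 female one was. Both groups entered the choice of the genes, so the contrast carries no test. The E12.5 ERG/GATA1s arrays had the Xist level of females and the E14.5 ones that of males, so stage and sex by markers cannot be told apart in this genotype.

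The 5 genes varied together from array to array. Over 16 arrays, which share groups and stages, Pearson's r between pairs ran from 0.807 for Sh3yl1 with Snx22 to 0.975 for Fn3krp with Endod1. It was 0.939 for the neighbours Fn3k and Fn3krp and 0.967 for Fn3k with Snx22. Between pairs it ran from 0.842 to 0.975 over the 13 arrays without opposing markers and from 0.786 to 0.98 over the 13 without mixed ones. After group means were taken out, r ran from 0.543 to 0.91 over all arrays. Over the groups that kept both arrays, 10 arrays in each case, it then ran from 0.653 to 0.942 without the opposing arrays. Without the mixed ones it ran from -0.0346 to 0.912. Their partner arrays are left out there as well, so the part of the mixed arrays was not tested. These are descriptions of genes chosen for a common pattern.

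The mean of 35 erythroid genes moved with the 5 genes over the arrays. It was 9.27 and 8.96 in E14.5 ERG/GATA1s, 9.70 and 9.66 in WT/GATA1s, 9.77 and 9.80 in ERG Tg, and 10.18 and 9.83 in WT. At E12.5 it was 9.59 and 9.22 in ERG/GATA1s, 9.40 and 9.42 in WT/GATA1s, 9.68 and 9.07 in ERG Tg, and 9.67 and 9.72 in WT. The E12.5 ERG Tg male array, low for all 5 genes, was thus low for the erythroid list too. Pearson's r with the list over the 16 arrays was 0.944 for Fn3k, 0.966 for Fn3krp, 0.949 for Endod1, 0.924 for Sh3yl1 and 0.865 for Snx22. It ran from 0.75 to 0.937 with the mean of 15 cell cycle genes, from -0.586 to -0.378 with 17 megakaryocyte and platelet genes, from 0.249 to 0.557 with 18 hepatocyte genes, from 0.356 to 0.582 with 11 macrophage genes and from -0.564 to -0.253 with 12 granulocyte genes. Within a stage, over 8 arrays each, r with the erythroid list was 0.897 to 0.986 at E14.5 and 0.805 to 0.982 at E12.5. With the cell cycle list it was much the same at E14.5, 0.898 to 0.968, and 0.503 to 0.988 at E12.5. With the hepatocyte list the sign turned, from -0.296 to -0.0136 at E14.5 and from 0.281 to 0.827 at E12.5. With the platelet list r was -0.793 to -0.552 at E14.5 and -0.384 to 0.0383 at E12.5. Over both stages r with the erythroid list was 0.886 to 0.964 without the opposing arrays and 0.853 to 0.965 without the mixed ones. These arrays include those of ERG/GATA1s and WT, which chose the 5 genes and between which the erythroid list also differed. A high r with that list is thus in part set by the choice. In bulk suspensions fewer cells of a type and less RNA per cell cannot be told apart.

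**Figure D3:**
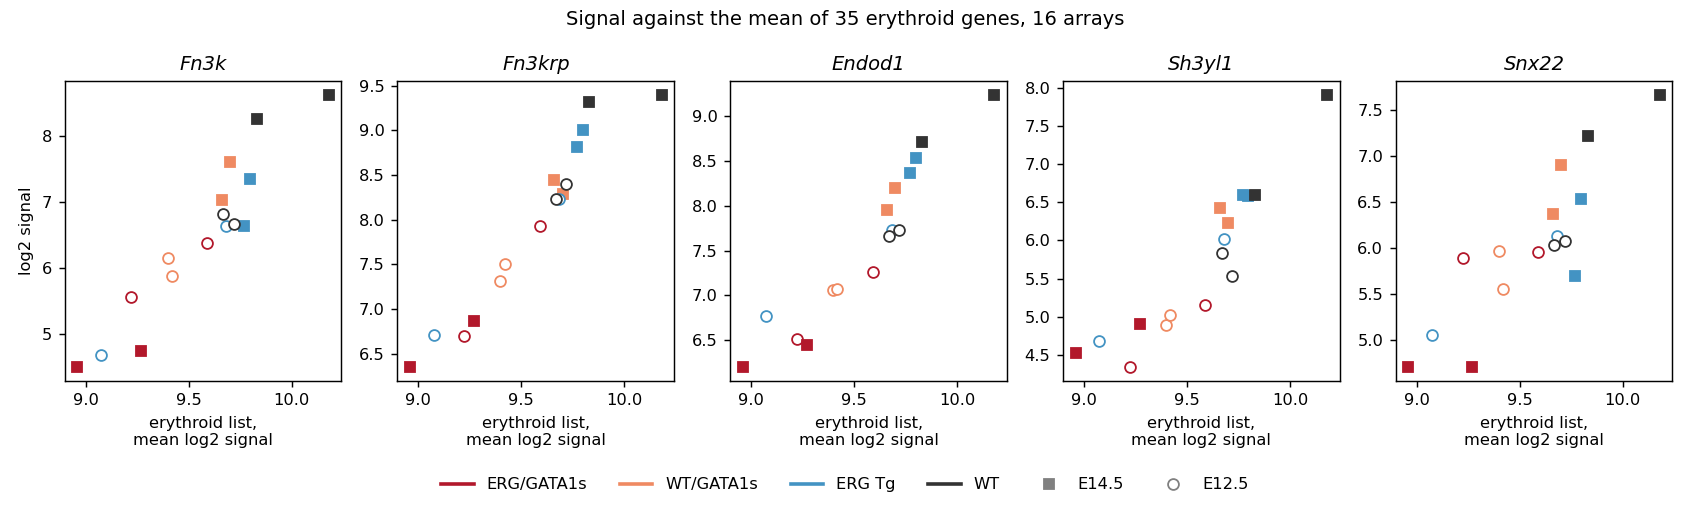
Log2 signal of each of the 5 genes (y axis, a separate scale for each panel) against the mean log2 signal of 35 erythroid genes (x axis) on 16 arrays, with colours for genotypes, filled squares for E14.5 and open circles for E12.5. Arrays low in the erythroid list, such as E14.5 ERG/GATA1s at 9.27 and 8.96, are low for the 5 genes, and Fn3k has r = 0.944. The ERG/GATA1s and WT arrays, which chose the 5 genes, are included.

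In ERG/GATA1s against WT over both stages, 25 of the 35 erythroid genes fell and 0 rose, with a median log2 difference of -0.58 (-0.01 over all units, of which 6.52% fell and 4.06% rose). Of the 17 megakaryocyte and platelet genes 15 rose and 1 fell (median 1.03), and of the 15 cell cycle genes 11 fell (median -0.40). Of the 12 granulocyte genes 5 rose (median 0.65). Of the 18 hepatocyte genes 4 fell and 1 rose, with a median of -0.50 over both stages, 0.04 at E14.5 and -1.05 at E12.5. Of the 11 macrophage genes 0 passed in limma's test (3 had an unadjusted p under 0.05). With the 3 arrays of opposing markers left out, 3 of 35 erythroid, 0 of 15 cell cycle and 6 of 17 platelet genes passed in those directions. Without the 3 arrays of mixed markers they were 19, 2 and 10. The number of granulocyte genes that rose was 1 without the opposing arrays, 2 without the mixed ones, the E12.5 WT male or the E14.5 ERG/GATA1s female, and 3 without the E12.5 ERG/GATA1s male or the E14.5 WT male. The number of hepatocyte genes that fell was 0 without the opposing arrays and 1 without the mixed ones, and it ran from 0 to 14 when 1 array was left out, moving by over 1.5 times for every array but the E14.5 ERG Tg pair. The erythroid count was 15 without the E12.5 WT male array. The cell cycle count was 3 without that array or the E14.5 ERG/GATA1s female, 4 without the E12.5 ERG/GATA1s male, 5 without the E14.5 ERG/GATA1s male and 7 without the E14.5 WT female.

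In WT/GATA1s against ERG Tg 0 of 35 erythroid genes passed in limma's test (6 had an unadjusted p under 0.05), while 16 of 17 platelet genes and 10 of 12 granulocyte genes were higher in WT/GATA1s. Of all units 6.85% were called. The granulocyte count was 4 without the E12.5 WT/GATA1s male or the E14.5 ERG Tg female array, 6 without the E12.5 ERG Tg male, 3 without the arrays of opposing markers and 1 without those of mixed markers. At E14.5 against E12.5 in these genotypes, 16 of 35 erythroid, 18 of 18 hepatocyte and 10 of 11 macrophage genes rose and 11 of 12 granulocyte genes fell. Of all units 22.1% rose, and 37.8% were called in either direction. The erythroid count was 9 without the E12.5 WT/GATA1s female or the E14.5 ERG Tg male array, 10 without the E12.5 ERG Tg male or the E14.5 WT/GATA1s male, and 7 without the arrays of mixed markers. The mean of the hepatocyte list was 9.59 to 10.49 on the E14.5 arrays of WT/GATA1s and ERG Tg, against 7.45 to 8.81 on the E12.5 arrays. The part of these cell type markers in the results for the 5 genes was not tested.

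Among the genes next to the 5 genes in the RefSeq order, the difference of each tested neighbour lay nearer to 0 than that of the gene it adjoins, with Dapk2 beside Snx22 the closest. The 5 genes were chosen as low in ERG/GATA1s against WT, so almost any other gene lies nearer to 0 by that choice. These gaps were not tested and do not show that the fall is confined to the 5 genes. Of the 40 nearest protein-coding genes, 5 on each side of each locus, 33 were tested, and in ERG/GATA1s against WT over both stages 5 fell and 0 rose (15.2%, with 10.6% of all units called in either direction). Around Fn3krp and Fn3k 1 of 9 tested genes fell, and their median was -0.02. The nearest ones were Rab40b, a small GTPase gene, at 0.09 ± 0.17 (SE, adjusted p = 0.799) before Fn3krp, and Tbcd, a tubulin folding cofactor gene, at -0.31 ± 0.13 (adjusted p = 0.138) after Fn3k. Narf, 4 genes before Fn3krp, fell by 0.57 ± 0.15 on the log2 scale (adjusted p = 0.0262).

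Next to Endod1 0 of 8 tested genes passed in limma's test (2 had an unadjusted p under 0.05), and its nearest neighbours were the sestrin gene Sesn3 at -0.18 (adjusted p = 0.55) and the histone demethylase gene Kdm4d at 0.01 (adjusted p = 0.948). Next to Sh3yl1 1 of 7 passed. That gene was Acp1, which encodes a small phosphotyrosine phosphatase and starts 57 bases from Sh3yl1 on the other strand. It fell by 0.57 ± 0.12 on the log2 scale (adjusted p = 0.00965), against -1.74 for Sh3yl1, and r between them was 0.91 over the 16 arrays, 0.916 without the opposing and 0.90 without the mixed ones. Fam110c on the other side was at 0.37 (adjusted p = 0.0968).

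Next to Snx22 3 of 9 passed. The adjacent sorting nexin gene Snx1, a retromer component, fell by 0.50 ± 0.12 (adjusted p = 0.0207), the ubiquitin ligase gene Herc1 by 0.55 ± 0.14 (adjusted p = 0.0239) and the death-associated kinase gene Dapk2 by 1.17 ± 0.15 (adjusted p = 0.000675), against -1.44 ± 0.21 for Snx22. Ppib, the cyclophilin gene on the other side, was at -0.25 (adjusted p = 0.238). Dapk2 correlated with Snx22 at r = 0.93 over the 16 arrays, 0.937 without the opposing and 0.952 without the mixed ones.

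**Figure D4:**
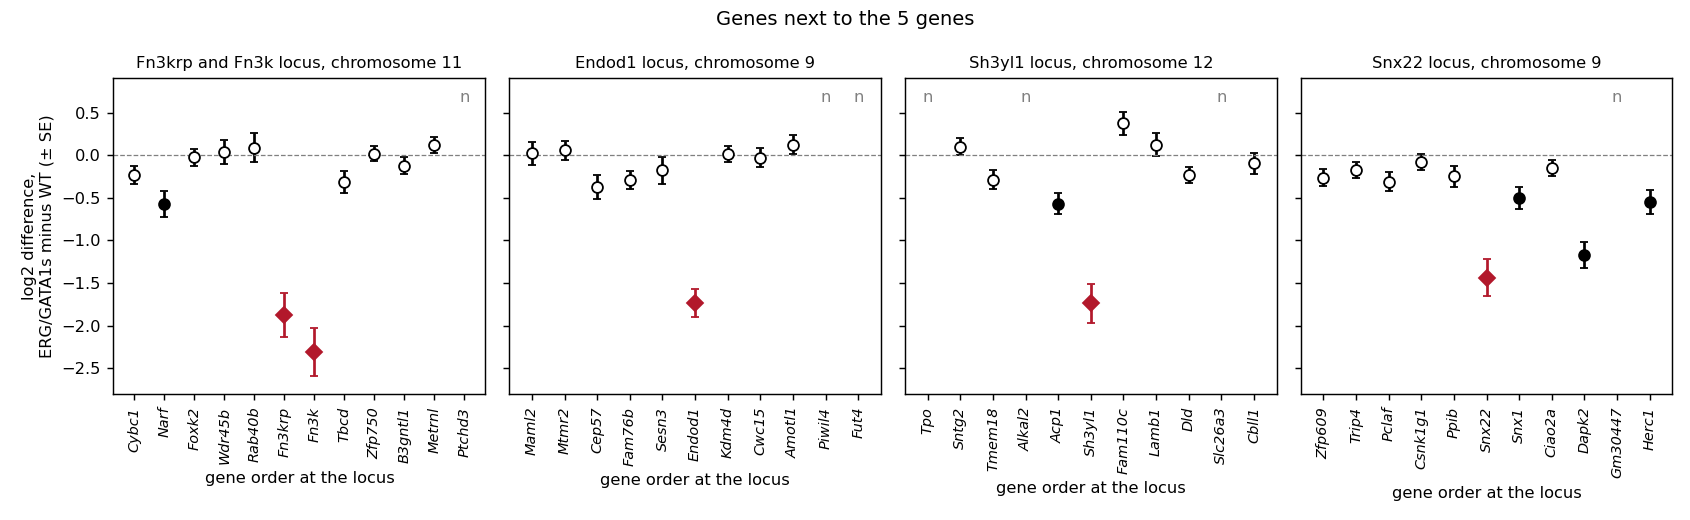
Log2 difference of ERG/GATA1s minus WT over both stages (y axis, with SE) for genes in chromosomal order (x axis), with red diamonds for the 5 genes, filled circles for neighbours with an adjusted p under 0.05, open circles for neighbours that did not pass and n for genes not tested. The neighbours run from -1.17 (Dapk2) to 0.37 (Fam110c), and the 5 genes from -2.31 to -1.44.

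Dapk2 passed when any single array was left out, and it was the 1 neighbour that passed without the arrays of opposing markers (adjusted p = 0.0434) or without those of mixed markers (adjusted p = 0.0083). Acp1 lost its call without the E12.5 WT male array (adjusted p = 0.0576). Narf lost it without that array (adjusted p = 0.127), the E12.5 ERG/GATA1s male, the E14.5 WT male or either E14.5 ERG/GATA1s array. Snx1 lost it without the E12.5 WT male (adjusted p = 0.102), the E12.5 ERG/GATA1s male, either E14.5 ERG/GATA1s array or the E14.5 WT female. Herc1 lost it without the E12.5 ERG/GATA1s male (adjusted p = 0.105), either E14.5 ERG/GATA1s array or either WT array labelled female.

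In WT/GATA1s against ERG Tg 2 of 33 neighbours fell (6.06%, with 6.85% of all units called). They were Cybc1, which encodes a chaperone of the phagocyte oxidase, at -0.39 ± 0.11 (adjusted p = 0.0431) and the casein kinase gene Csnk1g1 at -0.39 ± 0.09 (adjusted p = 0.0208). Csnk1g1 lost its call without any 1 of 7 of the 8 arrays compared, the E14.5 WT/GATA1s male being the exception (adjusted p up to 0.119). Cybc1 lost it without any of those 8 or either E14.5 ERG/GATA1s array (adjusted p up to 0.182). In the stage comparison 16 of 33 neighbours passed (48.5%, with 37.8% of all units called in either direction), of which 14 rose and 2 fell. The median was 0.23, against -0.03 over all units.

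Other genes of ketosamine and glyoxal handling, listed for the sugar adducts on which Fn3k works, mostly did not pass between ERG/GATA1s and WT. Of 14 tested besides Fn3k and Fn3krp, 1 rose and 1 fell, with a median of -0.07. Most units did not pass either: over all units 4.06% rose, 6.52% fell and the median was -0.01. Hagh, which encodes the second enzyme of the glyoxalase pathway, fell by 0.69 ± 0.12 on the log2 scale (adjusted p = 0.00268), a call kept when any single array was left out. The aldo-keto reductase gene Akr1b8 rose by 0.63 ± 0.18 (adjusted p = 0.0447). Among omissions of single arrays it kept its call only without the E14.5 WT male, the E14.5 ERG/GATA1s male or either E14.5 ERG Tg array, and its adjusted p reached 0.213. WT/GATA1s against ERG Tg moved 0 of 14 in limma's test (2 had an unadjusted p under 0.05), with 6.85% of all units called.

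At E14.5 against E12.5 in the single-allele genotypes 8 of the 14 rose and 0 fell (median 0.38), with 22.1% of all units called higher. The largest were Park7, a deglycase and redox gene, at 1.09 ± 0.12 (adjusted p = 1.9e-05), Akr1b8 at 0.91 (adjusted p = 0.00177), Hagh at 0.83 (adjusted p = 0.000114), Glo1, the first glyoxalase enzyme gene, at 0.82 (adjusted p = 0.000239) and the aldehyde reductase gene Akr1a1 at 0.66 (adjusted p = 0.000471). These 5 passed when any single array was left out, and also without the arrays of opposing or of mixed markers. Over the list, 5 of 14 rose without the arrays of mixed markers or without either the E12.5 WT/GATA1s female or the E14.5 WT/GATA1s male array.

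Among 29 sorting nexin genes other than Snx22, 4 fell and 0 rose in ERG/GATA1s against WT (median -0.06). Of all units 6.52% fell and 4.06% rose. Snx32 fell by 0.88 ± 0.17 (adjusted p = 0.00513), Snx15 by 0.72 ± 0.13 (adjusted p = 0.00376), Snx1 by 0.50 as above and Snx29 by 0.43 ± 0.12 (adjusted p = 0.0396). Snx32 and Snx15 passed when any single array was left out, and they were the 2 that passed without the arrays of mixed markers. Snx29 lost its call without either E12.5 WT array (adjusted p up to 0.161), either E12.5 WT/GATA1s array, the E12.5 ERG/GATA1s male, either E14.5 ERG/GATA1s array or the E14.5 WT female. With the 3 arrays of opposing markers left out, 0 of 29 passed. Snx22 itself was at -1.44 in this comparison.

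In WT/GATA1s against ERG Tg 1 of 29 sorting nexin genes passed, with 6.85% of all units called. That gene was Snx27, which recycles receptors from endosomes, at -0.55 ± 0.14 (adjusted p = 0.0333). It lost its call without either E12.5 ERG Tg array, either E14.5 ERG Tg array or either WT/GATA1s array labelled female (adjusted p up to 0.2). With stage 10 of 29 rose and 0 fell (median 0.17), with 22.1% of all units called higher. Among those that rose were Snx1 at 0.81 (adjusted p = 0.00025), Snx13 at 0.70 (adjusted p = 0.00218), Snx7 at 0.65 (adjusted p = 0.00658) and Snx6 at 0.61 (adjusted p = 0.00631). Without the arrays of mixed markers 3 of 29 rose. The number that rose stood at 6 when the E12.5 WT/GATA1s female, the E12.5 ERG Tg male, the E14.5 WT/GATA1s male or either E14.5 ERG Tg array was left out.

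The genes whose signal over the 16 arrays was most like that of Fn3k were Dhrs11, a dehydrogenase gene (r = 0.9641), Slc16a10, an aromatic amino acid transporter gene (r = 0.9628), and the kinase gene Clk3 (r = 0.96). For Fn3krp they were Rhd (r = 0.9832) and Art4 (r = 0.9826), which encode carriers of red cell blood groups, and Fam210b (r = 0.974). For Endod1 they were Rhd (r = 0.9854), Ubac1 (r = 0.9639) and Art4 (r = 0.9637). Rhd is also 1 of the 35 erythroid genes. For Sh3yl1 they were the glutathione-degrading enzyme gene Chac2 (r = 0.9746), the lipid transfer gene Osbpl8 (r = 0.9675) and Scrn3 (r = 0.9671). For Snx22 they were the glucose transporter gene Slc2a4 (r = 0.9393), the adaptor gene Dok4 (r = 0.939) and Slc16a10 (r = 0.938). The correlations of these named genes ran from 0.922 to 0.983 without the opposing arrays and from 0.933 to 0.993 without the mixed ones. Of 15737 candidate genes, 51 had r over 0.9 with Fn3k, 67 with Fn3krp, 61 with Endod1, 101 with Sh3yl1 and 10 with Snx22.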

How the data were processed

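Total RNA of fetal liver cell suspensions was hybridised to Affymetrix arrays, per the labels' protocols. The authors deposited log2 signals that they summarised by probe set with RMA, as named without a version in the submitters' processing notes. Scanner files were not used here.

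Of 28270 probe sets, 21780 had 1 gene symbol, 1617 several and 4873 none in the platform annotation, and 21689 symbols were checked by gene identifier. Each symbol was read at its probe set of highest mean, and a unit entered the tests if at least 2 arrays exceeded 3.74, the 30th percentile of the table, which left 16258. No build is given for the probe sets. Upstream windows are from RefSeq.

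All 16 arrays were fitted with limma 3.58.1 in R 4.3.3, with a mean per group and labelled sex (7 residual degrees of freedom), eBayes, two-sided tests and Benjamini-Hochberg adjustment over all units at a threshold of 0.05. The fits were tested on simulated data. Stage comparisons average WT/GATA1s and ERG Tg. The genes named are the 5 genes, the 3 units most correlated with each, neighbours that passed or lie nearest, list genes that passed (up to 6 a list), sex markers and up to 4 cell type markers a list. Runx1t1 and Slc2a4 border Snx22 by rank. The 5 genes, the lists and the tests were chosen with earlier results of these data known.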

Additional observations from a re-analysis of the deposited data

Results flagged for a closer look

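For 4 of the 5 genes both ERG/GATA1s pairs of arrays, paired by labelled sex, were lower at E14.5 than at E12.5. Both pairs of another genotype were higher. For Fn3krp the pairs depended on the labels, because the E14.5 ERG/GATA1s female array (6.87) exceeded the E12.5 male one (6.7). These differences were not tested because the ERG/GATA1s and WT arrays chose the genes. The log2 stage difference of Fn3k in ERG/GATA1s minus that in WT/GATA1s was -2.655, and minus that in WT it was -3.055. For Fn3krp it was -1.665 against WT/GATA1s, -2.145 against ERG Tg and -1.75 against WT. For Endod1 it was -1.57, -1.76 and -1.84 against WT/GATA1s, ERG Tg and WT. For Snx22 it was -2.1 against WT/GATA1s and -2.615 against WT. The female-side markers of both E12.5 ERG/GATA1s arrays and the male-side markers of both E14.5 ones move with this difference. Without the opposing arrays these 10 values ran from -3.12 to -1.81, and without the mixed ones from -3.21 to -1.2. The part of the markers in it was not tested.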

How the results depend on the processing

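WT/GATA1s against ERG Tg over both stages, and its stage difference, passed for 0 of the 5 genes under every alternative run. No called value changed direction. The labels give no replicate numbers, and arrays were paired across groups only by labelled sex, through the covariate. Without that term the calls for the 5 genes stayed as they were in the comparisons tested. The alternatives were filters on dim probe sets, quantile normalization, centring, no sex term, a Y-linked level in its place, only the arrays compared, arrayWeights, all probe sets, eBayes with trend and robust, omission of the arrays with opposing markers and omission of single arrays. Omission of the 3 arrays with mixed markers was chosen after seeing the data. The causes of the shifts below were not tested, except that fewer arrays were fitted where arrays were left out.

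The stage comparison passed for 3 of 5 genes without the mixed arrays and for 4 to 5 when 1 array was left out, and Snx22 also missed the threshold after quantile normalization (0.60, adjusted p = 0.0603). WT/GATA1s against ERG Tg at E14.5 passed for 1 of 5 without the mixed arrays. The counts of all units called moved further. Over both stages, WT/GATA1s against ERG Tg called 1113 units, 2209 with only the arrays compared, 2536 with arrayWeights, 204 without the mixed arrays and 452 to 1710 with 1 array left out. At E12.5 it called 427, against 283 with centring, 0 with only the arrays compared, 957 with arrayWeights, 0 without the opposing arrays, 73 without the mixed ones and 27 to 698 with 1 left out. At E14.5 it called 1073, against 0, 3046 and 306 with only the arrays compared, arrayWeights and no mixed arrays, and 245 to 1588 with 1 left out. The stage comparison called 6141, 2679 without the mixed arrays and 3925 to 7567 with 1 left out. The stage difference called 508, against 1037 with only the arrays compared, 1263 with arrayWeights, 62 without the opposing arrays, 208 without the mixed ones and 135 to 794 with 1 left out.

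In ERG/GATA1s against WT 1720 units were called, against 1030 with the Y-linked level, 1132 with only the arrays compared, 585 with arrayWeights, 241 without the opposing arrays, 610 without the mixed ones and 788 to 4048 with 1 left out. The 5 neighbours called became 3 with no sex term or the Y-linked level, 2 with arrayWeights, 1 without the opposing or the mixed arrays and 2 to 13 with 1 left out. The 6 genes called in the ketosamine and sorting nexin lists became 3 with only the arrays compared, arrayWeights or no mixed arrays, 1 without the opposing arrays and 3 to 9 with 1 left out. In WT/GATA1s against ERG Tg the 2 neighbours became 1 with centring, no sex term, the Y-linked level, eBayes with trend and robust or all probe sets, 4 with arrayWeights, 0 without the opposing or the mixed arrays and 0 to 2 with 1 left out.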
